A study of Mus musculus with 5 samples.

Results

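Of the 12845 regions enriched for H3K27me3 in mouse embryonic fibroblasts (MEFs) expressing H3.3K27R, 2433 overlapped the body of a protein-coding gene and contained no annotated start site of one. These regions were chosen by position alone from the K27R list: chromosomes 1 to 19, a width below 100 kb, no protein-coding start site inside, and overlap with at least 1 protein-coding gene body (mm9, GENCODE vM1). The list held 12093 autosomal regions, of which 2423 under 100 kb contained a protein-coding start site, 5927 under 100 kb touched no protein-coding gene and 1310 were 100 kb or wider. The MEF line came from an embryo with loxP sites around exons of Eed, which encodes a subunit of Polycomb Repressive Complex 2 (PRC2), and the line was transduced with lentiviruses for H3.3K27M, H3.3K27R or human EZHIP (hEZHIP). Each of these 3 groups had 1 H3K27me3 ChIP-Seq library, all carried the floxed Eed allele, and the parental cells and the EED-null clone were not analysed here. The lists give positions and no heights, so that depth and replicate spread are unknown and every comparison describes these libraries, with no test. Intervals printed with shares are exact Clopper-Pearson 95% intervals, which cover counting error only and treat regions of 1 library as independent.

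PRC2 places methyl groups on lysine 27 of histone H3, and the trimethylated form marks silent developmental genes. In mammals PRC2 is recruited mainly to CpG islands, short stretches rich in CG dinucleotides that overlap many promoters, and the mark then spreads outward at lower density over neighboring chromatin, including introns. H3.3K27M, the histone mutant of diffuse midline glioma, and EZHIP, the protein expressed in PFA ependymoma, both inhibit PRC2, whereas H3.3K27R, with arginine at the same residue, was the comparison here, and the question asked of these libraries was where the mark stayed enriched. A gene-body region is called kept in K27M or in EZHIP where at least 1 bp of it was covered by a peak of that list. A K27M or EZHIP peak is referred to as a residual peak. A region without a residual peak is called cleared, which means only that no peak was called there and not that the mark was absent.

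Most gene-body regions were cleared in both lines. A K27M peak overlapped 92 of the 2433 regions (3.78%, 3.06 to 4.62), against 17.0% of all autosomal K27R regions, and an EZHIP peak overlapped 105 (4.32%, 3.54 to 5.2), against 17.8%. Both peaks overlapped 47 regions (1.93%, 1.42 to 2.56), against 13.7% of all autosomal regions. There were 45 regions kept in K27M alone, 58 kept in EZHIP alone and 2283 (93.8%) without any residual peak. Of the 43.8 Mb spanned by gene-body regions, K27M peaks covered 0.596 Mb (1.36%) and EZHIP peaks 0.558 Mb (1.27%). Regions with a protein-coding start site stood far apart, with 40% kept in K27M (38.0 to 42.0) and 37.9% in EZHIP (36.0 to 39.9). Regions that touched no gene were close to the gene-body regions, with 2.73% (2.33 to 3.18) and 3.44% (2.99 to 3.94). With the start of every protein-coding transcript excluded, 2.24% of gene-body regions were kept in K27M and 1.22% in both lines, and among the 2022 regions wholly inside 1 gene 2.77% were kept in EZHIP and 1.04% in both.

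The sequences below show what separates kept from cleared gene-body regions only in part. Each is the 200 bp bin with most CG dinucleotides outside annotated exons (mm9, plus strand), and CG dinucleotides are in capitals. Regions are named by host gene. The Evi5 and Spnb4 regions lead those kept in both lines, Cacna1c is the widest kept in K27M alone, Rora holds the longest CpG island among the 3 widest island-bearing regions without a residual peak, and Park2 is the widest gene-body region.
Evi5 (chr5:108153801-108154000): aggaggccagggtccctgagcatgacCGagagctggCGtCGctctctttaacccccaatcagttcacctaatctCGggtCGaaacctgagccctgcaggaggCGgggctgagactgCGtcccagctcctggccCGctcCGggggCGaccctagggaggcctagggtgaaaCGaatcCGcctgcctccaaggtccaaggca
Spnb4 (chr7:28181601-28181800): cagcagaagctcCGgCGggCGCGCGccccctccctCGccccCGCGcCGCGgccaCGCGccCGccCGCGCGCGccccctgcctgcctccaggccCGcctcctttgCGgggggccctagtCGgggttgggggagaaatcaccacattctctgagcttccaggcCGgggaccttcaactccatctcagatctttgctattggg
Cacna1c (chr6:119058601-119058800): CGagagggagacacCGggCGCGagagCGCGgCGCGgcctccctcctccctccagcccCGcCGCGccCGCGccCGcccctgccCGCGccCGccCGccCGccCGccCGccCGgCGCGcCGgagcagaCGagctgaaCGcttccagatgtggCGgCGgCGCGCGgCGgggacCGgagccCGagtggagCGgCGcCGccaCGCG
Rora (chr9:69138001-69138200): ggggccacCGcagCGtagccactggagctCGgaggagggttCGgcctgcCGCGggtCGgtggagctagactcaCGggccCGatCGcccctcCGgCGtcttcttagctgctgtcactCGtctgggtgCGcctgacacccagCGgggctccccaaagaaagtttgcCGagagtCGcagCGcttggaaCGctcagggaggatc
Park2 (chr17:11857601-11857800): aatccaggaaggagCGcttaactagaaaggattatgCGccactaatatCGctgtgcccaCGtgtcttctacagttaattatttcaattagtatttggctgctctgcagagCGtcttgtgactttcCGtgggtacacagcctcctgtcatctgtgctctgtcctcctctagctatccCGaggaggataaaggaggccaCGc
The bin of the Evi5 region lies outside Evi5 itself, in an island that holds the start of another gene, Gfi1, and the other 4 bins lie in introns of their hosts. The bins of Evi5 and Spnb4 hold 12 and 21 CG dinucleotides and lie in both a K27M and an EZHIP peak. The bin of Cacna1c holds 40, the highest count in any gene-body region, and lies in a K27M peak and in no EZHIP peak. The bin of Rora holds 19 and lies in no residual peak, as does the bin of Park2 with 8. Across gene-body regions with a bin that could be scored, the median count in the richest bin was 13 in the 47 kept in both (quartiles 8 to 20), 10 in K27M alone, 9 in EZHIP alone and 6 in 2271 kept in neither (quartiles 4 to 8). The groups overlapped widely, since cleared regions reached 38. The richest bin is the highest of all bins in a region, so wider regions had more bins to draw from. Median widths, in the same order, were 37.4, 14.6, 29.0 and 9.8 kb. The part of width in these counts was not tested.

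**Figure D1:**
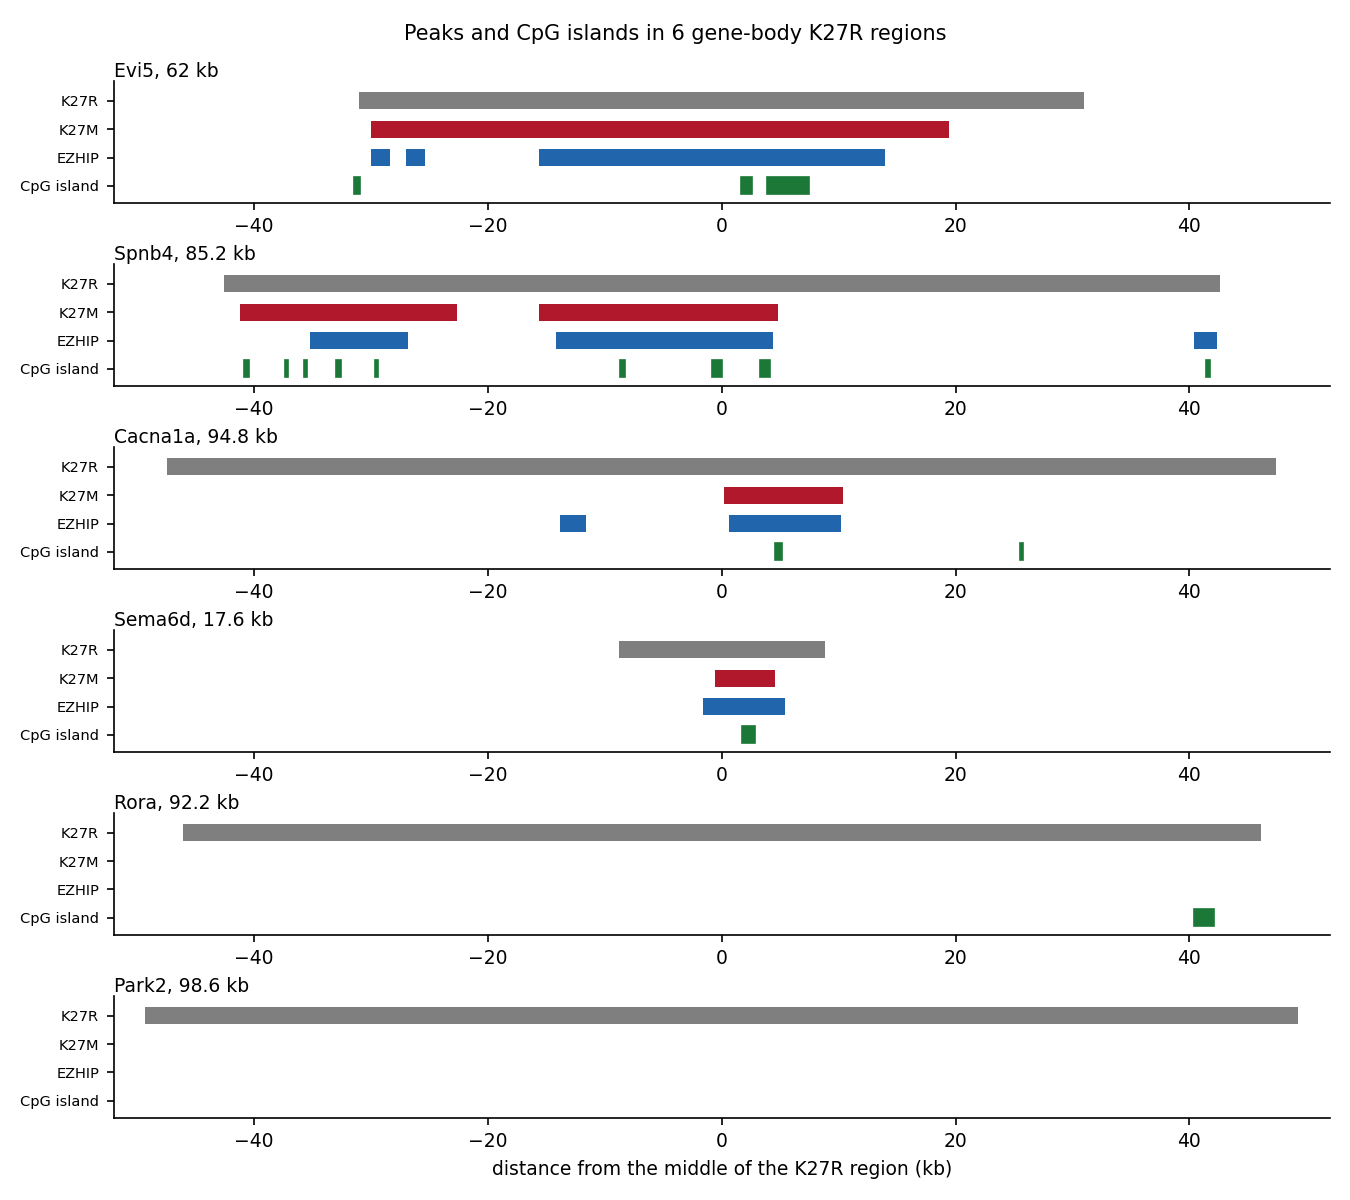
Positions of the K27R region (gray), K27M peaks (red), EZHIP peaks (blue) and CpG islands (green) in 6 gene-body regions named by host gene, against the distance in kb from the middle of the region. Residual peaks overlap islands in Evi5, Spnb4, Cacna1a and Sema6d, except the EZHIP peaks of 1.6 kb in Evi5 and the EZHIP peak of 2.2 kb in Cacna1a. Rora and Park2 hold no residual peak.

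The position of these regions was checked against the gene models. In 2026 regions (83.3%) every base lay in a protein-coding gene body, and 206 (8.47%) had under 50% of their length in one. The latter included 16 of the 47 regions kept in both lines (34.0%) and 173 of the 2283 kept in neither (7.58%). Regions that ran past the 3′ end of the host gene, the gene with the longest overlap, numbered 411. They included 26 of the 47 kept in both lines (55.3%) and 352 of the 2283 kept in neither (15.4%). Although no protein-coding start lay inside, 167 regions came within 2 kb of one. The regions spanned 1377 genes, of which 912 had 1 region and 92 had 5 or more. Fgfr2, a fibroblast growth factor receptor, had 18 regions (364.8 kb in sum, from 1.2 to 86.6 kb). All 18 overlapped only 1 of 29 annotated Fgfr2 transcripts, a model of 3009 kb, and none overlapped the other transcripts, the longest of which spans 104 kb. Gm20388, a predicted gene with a single transcript of 4435 kb, had 16. Ctnna3, which encodes an alpha-catenin of cell junctions, had 18 regions in a span of 1574 kb, 17 of which overlapped transcripts other than its longest. Of the regions in these 3 genes, 1 kept a K27M peak and 2 kept an EZHIP peak. As a check on the cells, 1 of 15 fibroblast marker genes, Pdgfra, had its start site in a K27R region, while those of all 5 blood genes and of the 4 annotated neural genes lay in one. None of these genes held a gene-body region. Ikzf1, Cdkn2a and the Hoxb and Hoxc genes, loci that the study displayed, held none either.

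Gene-body regions were narrow and sat in long genes. Their median width was 10.2 kb (quartiles 5.4 to 23.2, range 1.2 to 98.6), against 32.6 kb for regions with a start site and 9.6 kb for regions without a gene. Width entered the choice and is given as a description. The widest were in Park2, which encodes the ubiquitin ligase parkin (98.6 kb, chr17:11841401-11940000), Rab3c, a small GTPase of secretory vesicles (98.4 kb, chr13:110893201-110991600), and Cdh13, a cadherin anchored in the membrane without a cytoplasmic domain (97.6 kb, chr8:121755801-121853400). None of these 3 kept a peak in either line. Park2 and Rab3c were also the last regions inside the 100 kb limit. Just outside it were a region of 100.2 kb over Etv5, an ETS transcription factor, with 2.4 kb of EZHIP peak, and one of 100.6 kb in Zfp536, a zinc finger gene, with no residual peak. The 1339 host genes had a median length of 94.8 kb against 15.5 kb over all autosomal protein-coding genes. Of the 909 autosomal protein-coding genes of 200 kb or more, 382 were hosts. The rule itself favors long genes, which offer more room away from a start site, so host length is likewise given as a description. An exon of a protein-coding gene was overlapped by 1427 gene-body regions (58.7%).

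Kept gene-body regions often held a CpG island, and regions without an island were seldom kept. Islands were present in 218 of 2433 regions (8.96%, 7.85 to 10.2), compared with 63.8% of regions with a start site and 5.58% of regions without a gene. Among the 218, 60 kept a K27M peak (27.5%, 21.7 to 34.0) and 47 an EZHIP peak (21.6%, 16.3 to 27.6). Among the 2215 without an island, 32 kept a K27M peak (1.44%, 0.990 to 2.03) and 58 an EZHIP peak (2.62%, 1.99 to 3.37). In both lines the interval of island regions lay wholly above that of the others. Counting only islands of 500 bp or more, 4.40% of regions held one and 43.0% of these kept a K27M peak, and among regions wholly inside 1 gene 1.70% of those without an island kept an EZHIP peak. Island-bearing regions were also wider, with a median of 22.2 kb against 9.8 kb, so shares were compared within width classes. Between 50 and 100 kb, K27M peaks were kept in 16 of 45 regions with an island (35.6%, 21.9 to 51.2) and in 6 of 171 without (3.51%, 1.30 to 7.48). Under 5 kb they were kept in 4 of 23 with an island (17.4%, 4.95 to 38.8) and in 3 of 517 without (0.580%, 0.12 to 1.69). EZHIP peaks between 50 and 100 kb were kept in 14 of 45 with an island (31.1%, 18.2 to 46.6) and in 17 of 171 without (9.94%, 5.90 to 15.4). Under 5 kb they were kept in 2 of 23 with an island (8.70%, 1.07 to 28.0) and in 3 of 517 without, with intervals that overlapped.

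Among regions with an island, wide gene-body regions were kept less often than start-site regions of the same width class. Only the presence of an island was matched, since gene-body islands were shorter (median 425 against 536 bp) and 85.3% of island-bearing gene-body regions held a single one, against 67.1% at start sites. Between 50 and 100 kb with an island, regions with a protein-coding start site kept K27M peaks in 70.6% (66.4 to 74.5) and EZHIP peaks in 70.2% (66.0 to 74.1), and neither interval overlapped that of the gene-body regions. The same held between 20 and 50 kb, where gene-body regions kept 29.9% in each line (19.3 to 42.3) and start-site regions 58.0% and 53.0%. From 5 to 10 kb the K27M shares were 22.2% (10.1 to 39.2) and 34.5% (26.7 to 43.1), and from 10 to 20 kb 25.5% (13.9 to 40.3) and 45.8% (39.5 to 52.2). In both of these classes the intervals overlapped, as they did for EZHIP. The start-site share was still the higher in each class and line. Regions without a gene kept 25.3% (16.7 to 35.5) and 30.8% (21.5 to 41.3) between 50 and 100 kb, with intervals that overlapped those of the gene-body regions. Under 5 kb with an island, the intervals of all 3 locations overlapped in both lines, so that no difference by location was detectable in these counts.

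**Figure D2:**
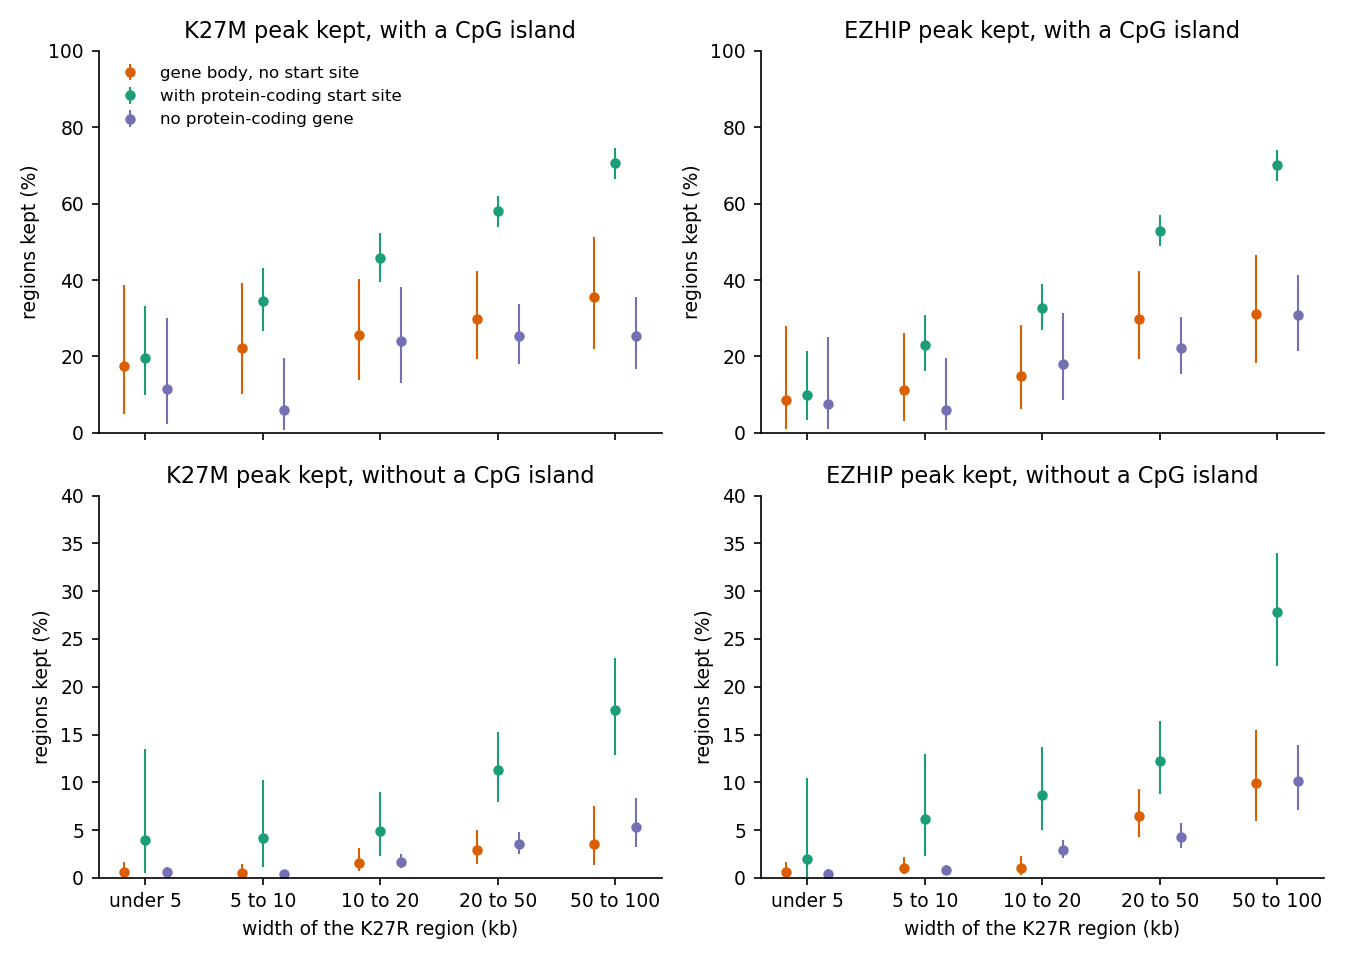
Share of K27R regions kept (%), with exact 95% intervals, by width of the region (kb) for gene-body regions (orange), regions with a protein-coding start site (green) and regions without a protein-coding gene (purple); upper panels with a CpG island on an axis to 100, lower panels without one on an axis to 40. Orange and purple intervals overlap in every class of every panel, and green points lie above both in every class of every panel.

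Islands of 500 bp or more were touched by a peak more often than shorter ones. Gene-body regions held 274 islands with a median length of 425 bp, and 186 of the 218 regions held 1 island. Of 156 islands under 500 bp, 18 were touched by a K27M peak (11.5%, 6.98 to 17.6). Of 67 islands of 500 to 1000 bp, 19 were (28.4%, 18 to 40.7), and of 51 islands of 1000 bp or more, 23 were (45.1%, 31.1 to 59.7), whereas at start-site regions 73.2% of islands of that length were (69.0 to 77.0). EZHIP peaks touched 15 of the 156 short islands (9.62%, 5.48 to 15.4), 17 of the 67 of middle length (25.4%, 15.5 to 37.5) and 12 of the 51 long ones (23.5%, 12.8 to 37.5). The EZHIP share thus did not rise above 1000 bp, and the intervals of the short and long islands overlapped. The residual peak usually lay on the island itself: in 48 of the 60 kept island regions for K27M (80%, 67.7 to 89.2) and in 37 of 47 for EZHIP (78.7%, 64.3 to 89.3).

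Many kept gene-body regions contained a start of another kind. The rule excluded only the 5′ end of each protein-coding gene, so that a region could still hold an internal start of a protein-coding transcript (376 regions) or the start of a gene of another class, such as a long non-coding RNA or pseudogene (167 regions). One or the other was present in 499 regions, in 30 of the 47 kept in both lines and in 416 of the 2283 kept in neither. Regions with an island and another start kept a K27M peak in 41 of 110 cases (37.3%, 28.2 to 47.0) and an EZHIP peak in 35 (31.8%, 23.3 to 41.4). With an island and no start the shares were 19 of 108 (17.6%, 10.9 to 26.1) and 12 of 108 (11.1%, 5.87 to 18.6). With another start and no island they were 15 of 389 (3.86%, 2.17 to 6.28) and 22 of 389 (5.66%, 3.58 to 8.44). With neither they fell to 17 of 1826 (0.931%, 0.543 to 1.49) and 36 of 1826 (1.97%, 1.38 to 2.72). Median widths of these 4 classes, in the same order, were 26.5, 17.7, 20.4 and 8.6 kb, and the part of width in these steps was not tested. Regions without a gene followed the same steps, from 35.1% and 33.0% with an island and another start to 1.28% and 2.0% with neither.

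**Figure D3:**
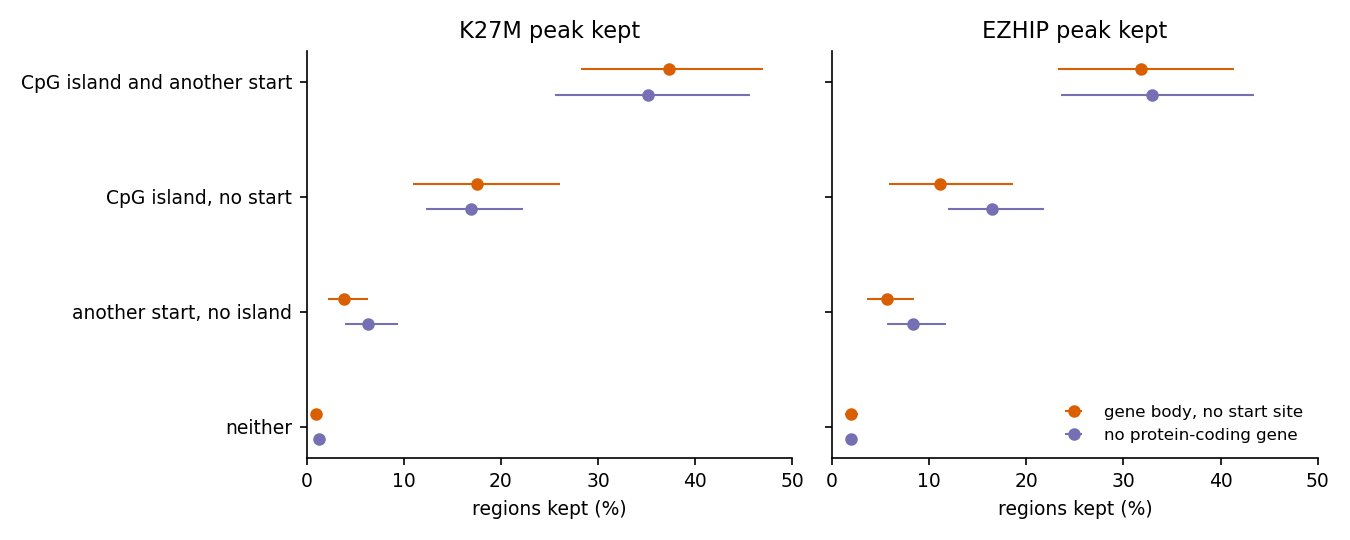
Share of K27R regions kept (%), with exact 95% intervals, by what the region contains, for gene-body regions (orange) and regions without a protein-coding gene (purple), in K27M (left) and EZHIP (right). Both colors fall from 31.8% to 37.3% with an island and another start to at most 2.0% with neither.

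Of the 3 gene-body regions with the longest stretch covered in both lines, the first contained a start of this kind. The second held such starts and ended just short of the protein-coding start of its host, and the third held none. The first, of 62 kb (chr5:108117401-108179400), overlapped only the 3′ end of Evi5, which encodes a GTPase-activating protein of cell division, and carried 49.4 kb of K27M peak and 32.8 kb of EZHIP peak, all of the latter inside the former. All of these peaks lay past the 3′ end of Evi5. The region contains Gfi1, a zinc finger repressor of blood cell development, whose start at position 108155056 lies in an island of 3.61 kb. GENCODE vM1 lists Gfi1 as a processed transcript, and RefSeq, in another build, lists it as protein-coding. The second, of 85.2 kb (chr7:28147401-28232600) in Spnb4, which encodes a beta-spectrin of the axonal membrane skeleton, ended 0.105 kb short of the annotated Spnb4 start. It held 9 islands and 6 internal transcript starts, with 39.0 kb of K27M peak and 29.0 kb of EZHIP peak in separate blocks over the islands. An EZHIP peak of 2 kb over an island of 0.3 kb lay at the end next to the Spnb4 start. The third, of 27.8 kb (chr15:102510801-102538600), touched the 3′ end of Calcoco1, a transcriptional coactivator, and held 18.6 kb of K27M and 13.2 kb of EZHIP peak around 1 island of 0.336 kb. Both of these peaks lay past the 3′ end of Calcoco1. Together these 3 regions held 73 kb of the 269.8 kb covered in both lines, or 27.1%. RefSeq lists as protein-coding the symbols of 4 starts that vM1 gives another class in gene-body regions: Gfi1, Gm12569, Gm8978 and Frat1. The regions of Gfi1 and Frat1 kept both peaks, and those of Gm12569 and Gm8978 kept none. Frat1, a regulator of Wnt signaling, lies in a region of 38.4 kb at the end of Frat2 (chr19:41883201-41921600) with 9.0 kb of K27M and 21.8 kb of EZHIP peak, both past the 3′ end of Frat2.

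Other regions kept in both lines, ranked by their shared stretch, were in Aff3, a nuclear protein of lymphoid cells (34.4 kb with 12 kb of K27M and 12.8 kb of EZHIP peak), Fgf20, a fibroblast growth factor (51.0 kb with 15.6 and 11.6 kb), and Ulk4, a member of the Unc-51-like kinase family (46.8 kb with 24.0 and 9.8 kb). The region in Ulk4 (chr9:121102601-121149400) held no island and no start of any class. A stretch of 9.6 kb was shared in Cacna1a, the pore subunit of the P/Q-type calcium channel, where an island-centered K27M peak of 10.2 kb lay in a region of 94.8 kb (chr8:87031001-87125800). Aff3 and Ulk4, like Frat1 above, were named after their values were seen. Narrower regions could be kept too. In Sema6d, a transmembrane semaphorin of axon guidance, a region of 17.6 kb (chr2:124425001-124442600) held 5.2 kb of K27M and 7.0 kb of EZHIP peak, with 7 internal starts.

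Without an island, the widest regions kept in both lines held peaks over a small part of their length. The region of Abcc6, a transporter of the ABC family, had 5.0 kb of K27M and 2.8 kb of EZHIP peak in 74.6 kb (chr7:53181801-53256400). Both peaks lay past the 3′ end of Abcc6, in a region that also overlapped Ccdc114. Aldh1l1, an enzyme of folate metabolism, had 8.8 and 3.8 kb in 72.6 kb (chr6:90465401-90538000). The region of Gm14221, a predicted gene, had 4.8 and 4.2 kb in 66.6 kb (chr2:160356801-160423400).

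With an island, wide regions could still be cleared. Grik3, a kainate receptor subunit, had a region of 96.6 kb (chr4:125315801-125412400) with an island of 228 bp and no residual peak. A region of 94.0 kb in Egfem1 (chr3:29541201-29635200) held an island of 334 bp and was cleared as well. In Rora, a nuclear receptor, 92.2 kb were cleared (chr9:69051001-69143200) although the island there was 1755 bp long and a transcript start lay in the region. The start sites of all 3 host genes lay in other K27R regions.

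The regions kept in K27M alone and in EZHIP alone differed in island content. Of the 45 kept in K27M alone, 30 held an island (66.7%, 51.0 to 80). Of the 58 kept in EZHIP alone, 17 did (29.3%, 18.1 to 42.7). The difference was not tested, and the intervals did not overlap. The EZHIP-only share was 13.5% (5 of 37) with every protein-coding transcript start excluded, against 52.4% in K27M alone, and 15.5% with islands of 500 bp or more, against 48.9%. EZHIP-only regions were the wider, with a median of 29.0 kb against 14.6 kb. The same order appeared among start-site regions, with islands in 90.8% of K27M-only and 69.7% of EZHIP-only regions, and among regions without a gene, with 35.8% and 19.3%. Seen by peak, 50 of 95 K27M peaks in gene-body regions overlapped an island (52.6%, 42.1 to 63.0) and 40 of 131 EZHIP peaks did (30.5%, 22.8 to 39.2). The K27M peaks were longer, with a median of 4.8 kb against 3.0 kb. The shortest gap between peaks was 5.2 kb in the K27M list and 1.2 kb in the EZHIP list. In the K27R list the shortest gap between regions was 0 bp. The part of peak spacing in the lengths was not tested beyond joining EZHIP peaks up to 5 kb apart. After joining, EZHIP peaks covered 0.588 Mb in place of 0.558 Mb.

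The widest regions kept in K27M alone each had a single peak that overlapped an island. Cacna1c, the pore subunit of the L-type calcium channel, held 7.0 kb in 91.4 kb (chr6:119033601-119125000) around an island of 1.73 kb. Nos1, neuronal nitric oxide synthase, held 2.2 kb in 79.6 kb (chr5:118245001-118324600). Rims1, a scaffold of the presynaptic active zone, held 12.2 kb in 73.2 kb (chr1:22492601-22565800) around an island of 1.01 kb. None of the 3 had an EZHIP peak. The widest regions kept in EZHIP alone had no island. They ran past the 3′ ends of Rapgef5, a guanine nucleotide exchange factor (3.0 kb in 95.8 kb, chr12:118984801-119080600), Pdcl3, a phosducin-like protein (2.6 kb in 93.4 kb, chr1:39050801-39144200), and BC018507 (3.0 kb in 91.6 kb, chr13:70637801-70729400). Each of these EZHIP peaks itself lay past the 3′ end of the named gene, whereas the regions in Cacna1c, Nos1 and Rims1 lay wholly inside their host genes.

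Where both lines kept a peak, the same stretch was usually involved. The K27M and EZHIP stretches overlapped in 46 of the 47 regions, the exception being Nrcam (named after its values were seen), a cell adhesion gene with 4.8 kb of K27M and 2.6 kb of EZHIP peak apart from each other. K27M covered more in 29 regions, EZHIP in 17, and 1 was equal. The median covered share was 16.7% for K27M and 15.5% for EZHIP. The number of regions kept by both lines was 51.1% of those kept in K27M and 44.8% of those kept in EZHIP, below the 75.3% and 79.5% among start-site regions and near the 58.6% and 46.6% among regions without a gene. Over all regions, start-site regions had a median width of 32.6 kb against 10.2 kb in gene bodies and held an island in 63.8% against 8.96%. The part of width and islands in these shares was not tested.

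**Figure D4:**
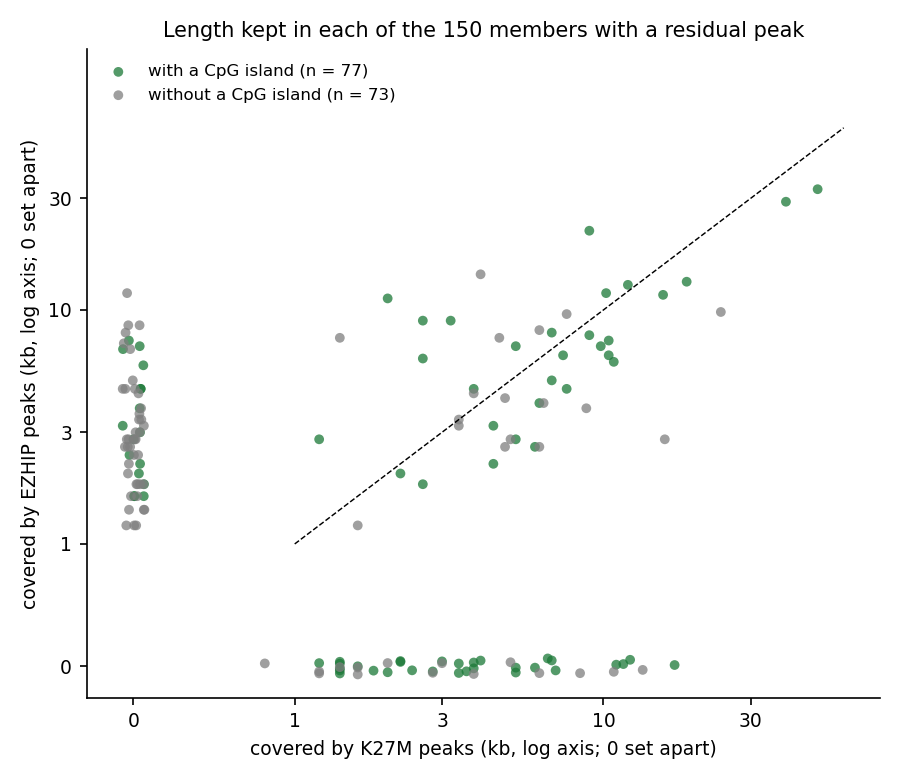
Length covered by K27M peaks (kb, horizontal, log axis) and by EZHIP peaks (kb, vertical, log axis) in each of the 150 gene-body regions with a residual peak, with lengths of 0 set apart and slightly spread for visibility; green points hold a CpG island, gray points do not, and the dashed line marks equal length. The 2 uppermost points on the right are Evi5 (49.4 and 32.8 kb) and Spnb4 (39.0 and 29.0 kb), and the 58 EZHIP-only regions on the left are mostly gray.

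Along the host gene, regions became more numerous from the 5′ to the 3′ end. Their middles fell in the first 20% of the gene in 285 cases, in the successive steps of 20% in 424, 456, 495 and 559, and past the 3′ end in 214. The rule removed regions with a start site and so thinned the 5′ end by construction. The share kept in K27M moved little inside the gene, between 2.19% and 3.86%, and was 10.3% past the 3′ end (6.56 to 15.2). For EZHIP it lay between 3.07% and 3.86% inside the gene and was 13.6% past the 3′ end (9.27 to 18.9). Regions with their middle past the 3′ end were wider, with a median of 23.1 kb against 7.6 to 10.8 kb in the steps within the gene. Among regions of 20 to 100 kb, those past the 3′ end of the host kept a K27M peak in 26 of 230 cases (11.3%, 7.52 to 16.1) and the others in 28 of 469 (5.97%, 4.0 to 8.51), whose intervals overlapped. For EZHIP the shares were 42 of 230 (18.3%, 13.5 to 23.9) and 36 of 469 (7.68%, 5.43 to 10.5). The order for K27M came from the 20 to 50 kb class, with 12.3% past the end and 4.35% of the others, whereas between 50 and 100 kb it was reversed, with 9 of 92 (9.78%, 4.57 to 17.8) and 13 of 124 (10.5%, 5.70 to 17.3). Islands were present in 25.7% of the 230 regions past the end and in 11.3% of the 469 others, and their part in these shares was not tested. In 16 of the 36 regions past the 3′ end that kept a K27M peak, and in 24 of the 49 that kept an EZHIP peak, the peak lay wholly outside protein-coding gene bodies.

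**Figure D5:**
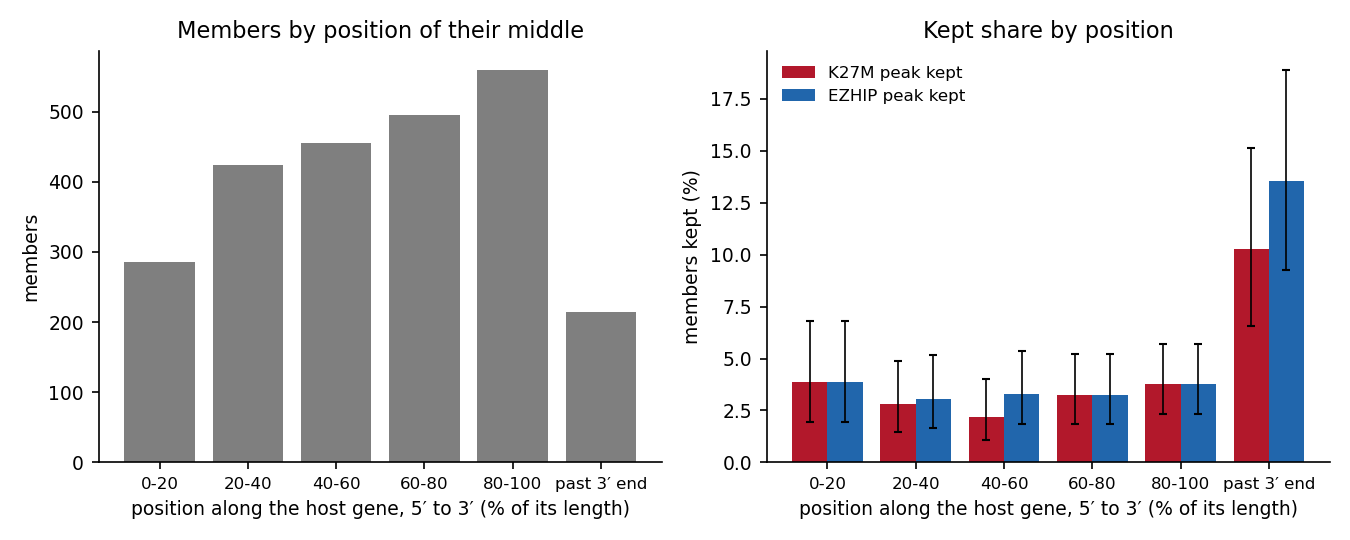
Left, number of gene-body K27R regions by the position of their middle along the host gene (% of its length, 5′ to 3′); right, share kept (%) in K27M (red) and EZHIP (blue) with exact 95% intervals. Counts rise from 285 to 559 along the gene, and both shares are highest in the 214 regions with their middle past the 3′ end.

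Gene-body regions were kept less often where the host's own start site lay in a K27R region. The host start lay in another K27R region for 1352 gene-body regions. Of these, 30 kept a K27M peak (2.22%, 1.5 to 3.15) and 39 an EZHIP peak (2.88%, 2.06 to 3.92). Of the 1081 whose host start lay outside K27R regions, 62 kept K27M (5.74%, 4.43 to 7.29) and 66 EZHIP (6.11%, 4.75 to 7.70). Median widths were 10.8 and 9.4 kb, and islands were present in 6.14% and 12.5%. Within island classes the order was the same but all intervals overlapped. Without an island the shares were 0.867% (0.433 to 1.55) and 2.22% (1.38 to 3.37) for K27M and 1.81% (1.15 to 2.71) and 3.7% (2.59 to 5.11) for EZHIP. With an island they were 22.9% and 30.4% for K27M and 19.3% and 23.0% for EZHIP. The host start itself was covered by a K27M peak for 695 regions, of which 16 kept a K27M peak (2.30%, 1.32 to 3.71), and by an EZHIP peak for 523, of which 24 kept an EZHIP peak (4.59%, 2.96 to 6.75). For hosts whose start was not covered, the shares were 4.37% (3.46 to 5.44) in K27M and 4.24% (3.38 to 5.24) in EZHIP.

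Proximity to a start and exon content moved with the kept share as well. Regions at most 2 kb from any protein-coding start kept K27M peaks in 22 of 167 cases (13.2%, 8.44 to 19.3) and EZHIP peaks in 23 (13.8%, 8.94 to 19.9), compared with 28 of 1265 (2.21%, 1.48 to 3.18) and 27 of 1265 (2.13%, 1.41 to 3.09) beyond 50 kb. Median widths in these classes were 10.2 and 10.0 kb, and islands were present in 27.5% and 5.69%. Regions free of protein-coding exons kept K27M in 8 of 1006 cases (0.795%, 0.344 to 1.56) and EZHIP in 10 (0.994%, 0.478 to 1.82), against 5.89% (4.72 to 7.24) and 6.66% (5.42 to 8.08) of those with an exon. Exon-free regions were narrower, at 7.2 kb against 14.6 kb, and held an island in 2.09% against 13.8%. CG density followed the same order: kept regions of 10 to 20 kb had a median of 14.6 CG per kb and cleared ones 8.44, and those of 50 to 100 kb had 10.1 and 8.68.

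Against all protein-coding genes, and without matching for length, genes of neuronal wiring and of the extracellular matrix were frequent hosts. The gene lists are given as counts beside those for all protein-coding genes, of which 6.47% (1377 of 21281 symbols) held a gene-body region. Among glutamate, GABA and glycine receptor genes, 16 of 47 held one, as did 19 of 64 synaptic adhesion genes, 10 of 42 collagens, 9 of 39 sodium and calcium channel genes, 18 of 92 potassium channel genes and 12 of 68 axon guidance genes. Over all gene-body regions 3.78% were kept in K27M and 4.32% in EZHIP, and the lists lay on both sides of these shares, with counts of at most 4. The kept regions numbered 4 of 55 in K27M and 1 of 55 in EZHIP for synaptic adhesion, 1 and 0 of 44 for the receptors, 2 and 1 of 29 for sodium and calcium channels, 1 and 1 of 43 for potassium channels and 2 and 3 of 40 for axon guidance. Median host lengths in these lists ran from 213 kb for collagens to 740 kb for synaptic adhesion, against 195 kb over all gene-body regions. Over all autosomal protein-coding genes the median length was 15.5 kb. By longest overlap, 382 of the 909 such genes of 200 kb or more were hosts, as were 1339 of all 21418. The part of gene length in these counts was not tested.

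In the remaining lists the kept regions numbered at most 3 in either line. Cadherins and protocadherins held regions in 9 of 65 genes, of which 1 of 31 regions was kept in each line, the region over Pcdha11 (4.4 kb of K27M and 2.2 kb of EZHIP peak in 65.0 kb). The potassium channel gene Kcnn2, a small-conductance channel activated by calcium, held the only kept region of its list, with 10.4 kb of K27M and 7.4 kb of EZHIP peak in 68.4 kb. Collagens kept 1 of 26 in each line and metalloproteases, with 13 of 79 genes, 1 of 31 in each. The leading members of these lists were Col28a1 (72.2 kb) and Adamts3 (38.8 kb), both without a residual peak. Solute carriers held regions in 32 of 341 genes and kept 0 and 2 of 55, and the widest of these regions, in Slc35f4 (73.6 kb), was cleared. Developmental transcription factors, the classic Polycomb targets at promoters, held gene-body regions in 17 of 296 genes and kept 2 of 35 in K27M and 2 of 35 in EZHIP, none in both. The Wnt, Fgf, Bmp and Notch list held regions in 8 of 122 genes and kept 1 and 3 of 27, 18 of which belong to the long Fgfr2 model. Zfp genes held regions in 11 of 361 genes and kept 1 and 0 of 17, with Zfp800 the widest (89.4 kb, cleared). Olfactory and vomeronasal receptors, with 18 of 1432 genes, kept 0 of 19, the widest being over Olfr151 (29.8 kb), and keratins had 1 region of 1.2 kb in Krtap15, also cleared.

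Gene-body regions were spread over all 19 autosomes, from 77 to 194 per chromosome and from 16.6% to 27.1% of each chromosome's K27R regions. Per chromosome, between 0% and 8% were kept in K27M and between 0% and 11.7% in EZHIP. Another K27R region lay within 10 kb of 563 gene-body regions (23.1%), and the median gap to the nearest one was 17 kb.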

How the data were processed

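H3K27me3 ChIP-Seq of crosslinked, MNase-digested chromatin was analysed from peak lists of 3 MEF libraries. By the study's methods and the submitters' processing notes, the authors aligned reads with Bowtie 1.0.0, at its default settings, to mm9 and to a spike-in genome (dm6 in the notes) and called broad peaks with MOSAiCS-HMM. Whether spike-in scaling entered the calls is not given in the sources used here. The study's methods give the same calling settings for its H3K27me3 libraries. The shortest gap was nevertheless 5200 bp in the K27M list, 1200 bp in the EZHIP list and 0 bp in the K27R list. Whether the K27R list was called or divided in another way is unknown, and every kept share compares it with the other lists. The deposited lists hold positions only, with no score, fold or p-value, so depth is unknown. The unit of the deposited columns is the base position, in 200 bp bins. Each list comes from 1 library, and no count or signal was used.

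Regions were taken as whole bins and are printed counting from 1. Every peak ended inside its NCBIM37 (mm9) chromosome, so no conversion was needed. CpG islands (26796 on chromosomes 1 to 19 and X) were segments over 200 bp found with a running score (17 per CG, -1 per other base), keeping those of 50% G+C or more whose CpG count exceeded 0.6 of the expected one, repeats included. Start sites were 5′ ends of 22350 protein-coding genes of GENCODE vM1. Overlap meant 1 bp or more. No test was run, since each group has 1 library and regions are not replicates. Shares carry exact Clopper-Pearson 95% intervals. The regions, lists and comparisons were chosen with earlier results of these data known. Named regions were those leading each class (widest, longest covered in both lines, kept in 1 line only, island without residual peak, both without island, most regions per gene, next to the width limit), the leading region of each gene list, and loci displayed in the study. One of these regions is not reported here. RefSeq gene classes (GRCm38) served by symbol only. Interval tools and the island finder were tested on simulated data. Computations ran in Python 3.11.15 with pandas 2.3.3, scipy 1.17.1 and numpy 2.4.6.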

Additional observations from a re-analysis of the deposited data

How the results depend on the processing

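Over 8 alternatives and 11 results, 69 of 88 values stayed inside the interval of the value reported (counts within 1.5 times) and 19 moved out of it. Some of the 69 could not move, because the setting does not enter the result. The island length leaves the number of regions and the kept shares over all regions as they were. The settings on peak size and on peak overlap leave the number of regions and the island share. Joining EZHIP peaks does not enter the number of regions, the K27M shares or the island share over all regions. It can add a region kept in EZHIP only where that region lies wholly between joined peaks, and it left every value unchanged. With the 5′ end of every protein-coding transcript taken as a start, 2057 regions remained, of which 2.24% kept a K27M peak, 3.01% an EZHIP peak and 1.22% both, 6.27% held an island, 19.4% and 14.7% of island regions were kept in K27M and EZHIP, and 13.5% of EZHIP-only regions held an island. Among 2022 regions wholly inside 1 gene, 2.77% were kept in each line, 1.04% in both and 6.78% held an island, and 1.70% of those without an island kept an EZHIP peak. With K27R regions of 5000 bp or more, 5.28% kept an EZHIP peak and 10.3% held an island. With islands of 500 bp or more, 4.40% held one, 43.0% and 30.8% of island regions were kept in K27M and EZHIP, and 48.9% of K27M-only and 15.5% of EZHIP-only regions held one. Joining K27R regions, dropping peaks under 2000 bp, asking for 50% of the peak inside the region and joining EZHIP peaks moved none of the values beyond its interval. The island shares of K27M-only and EZHIP-only regions and the joining of EZHIP peaks were added after seeing the data. In each setting island regions were kept more often than regions without an island in both lines. No paired analysis was possible because each group has 1 library. Read depth and peak heights, which the lists lack, limit every value.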
